A study of Mus musculus with 5 samples.

Results

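The complement alternative pathway was described through 9 of the 24330 gene symbols in the expression table: Cfd, C3, Cfb, Cfp, Cfi, Hc, C3ar1, C5ar1 and Cd55, chosen by symbol for their place in the pathway. Each had 1 row, with a value in each of 3 RNA-seq libraries of primary adipocytes. The adipocytes came from the epididymal fat of wild-type C57BL/6 mice aged 17 weeks, and the labels name no treatment and do not say whether the 3 libraries came from separate animals. The series also lists 1 bisulfite library from adipocyte-specific Dnmt1 knockout mice (Dnmt1 AKO) and 1 from wild-type mice, neither of which was analysed here, so no comparison of genotypes was made. Values are FPKM, which scale fragments by transcript length and by the size of the library, so that levels of different genes can be set side by side. The table holds no read counts, so sequencing depth is unknown and intervals for counting error cannot be formed. SDs measure the spread between the 3 libraries, which may be technical.

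Complement is a cascade of plasma proteins that marks and lyses cells and recruits leukocytes. In its alternative pathway, C3 that has turned over spontaneously binds factor B (Cfb), which the serine protease factor D (Cfd) then cuts to form the C3 convertase. Properdin (Cfp) stabilises that convertase, Cd55 and factor I (Cfi) take it apart or destroy its C3b, and cleavage of C3 and C5 (Hc) releases the anaphylatoxins read by the receptors C3ar1 and C5ar1. Factor D is also called adipsin because fat cells are its main source, unlike most plasma complement proteins, which come from the liver.

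The promoters of 7 of the 9 genes were found in the RefSeq table of build GRCm38.p6, as the 250 bases before 1 annotated start per gene. That start was the outer end of the RefSeq gene for Cfd, C3, Cfp and C3ar1. For C5ar1, Cd55 and Hc it lay 202, 2265 and 7094 bases inside the RefSeq gene, so a promoter at the outer end of those 3 genes was not examined. The windows are relevant to a series on DNA methylation because CpG is the site that Dnmt1 maintains. The Cfd window held 2 CpG dinucleotides and the C3 window 1, whereas the Cd55 window held 8. The windows of Cfp, Hc and C5ar1 held 2 each and that of C3ar1 held 5. The median over all 32851 promoters of this length was 6, and 29.0% of them held 2 or fewer. The 3 windows below are those of the most abundant member, of the member with the fewest CpG and of the member with the most. They run 5′ to 3′ on the strand of the gene and end at the base before the start used. Capitals mark CpG in Cfd and Cd55, and in C3 they mark the 2 motif matches described after the sequences.
Cfd, chr10:79890603-79890852, plus strand: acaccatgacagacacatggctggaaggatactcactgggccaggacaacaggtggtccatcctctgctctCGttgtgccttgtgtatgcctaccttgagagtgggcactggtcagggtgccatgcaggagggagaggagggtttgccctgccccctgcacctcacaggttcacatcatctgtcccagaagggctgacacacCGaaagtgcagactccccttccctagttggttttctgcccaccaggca
C3, chr17:57228137-57228386, minus strand: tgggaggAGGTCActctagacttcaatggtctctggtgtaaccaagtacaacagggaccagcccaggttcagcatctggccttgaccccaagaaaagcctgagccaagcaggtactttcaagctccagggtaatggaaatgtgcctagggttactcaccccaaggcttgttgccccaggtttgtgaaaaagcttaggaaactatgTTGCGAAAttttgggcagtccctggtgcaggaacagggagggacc
Cd55, chr1:130462745-130462994, minus strand: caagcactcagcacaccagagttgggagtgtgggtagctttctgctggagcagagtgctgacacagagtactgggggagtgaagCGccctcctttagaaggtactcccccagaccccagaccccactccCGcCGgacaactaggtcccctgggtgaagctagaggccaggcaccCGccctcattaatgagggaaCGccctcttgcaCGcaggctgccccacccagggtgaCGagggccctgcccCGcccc

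Each window was searched on both strands for 4 motifs. The letters TTGCNNAA (a C/EBP core) occurred in 9.56% of all promoters, AGGTCA (a half-site of nuclear receptors) in 14.0%, GAGGAAG (PU.1) in 10.6% and TATAAA (the classical core promoter element) in 12.4%. The C3 window held 1 C/EBP match, TTGCGAAA, from 45 to 38 bases before the start, and the single CpG of that window lies inside it. It also held 1 nuclear receptor half-site, from 243 to 238 bases before the start, which does not overlap the first match. C3ar1 and Hc each held 1 TATAAA match, from 235 to 230 and from 239 to 234 bases before the start used, farther upstream than a core promoter element usually lies, and Cfd, Cfp, C5ar1 and Cd55 held none of the 4 motifs. These are matches of letters only. Methylation of these bases was not analysed here.

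Most of the pathway was expressed in the preparation, but at levels that spanned orders of magnitude. At a detection threshold of FPKM 1 in every library, 7 of the 9 genes were detected, against 45.5% of all symbols. The median of the 9 genes was 5.07 on the log2(FPKM + 0.1) scale, against -0.30 over all symbols. The protease Cfd was the 6th most abundant of all symbols by mean FPKM. The convertase components and receptors followed at moderate levels, and the protease Cfi and the fifth component Hc were at or near 0.

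**Figure D1:**
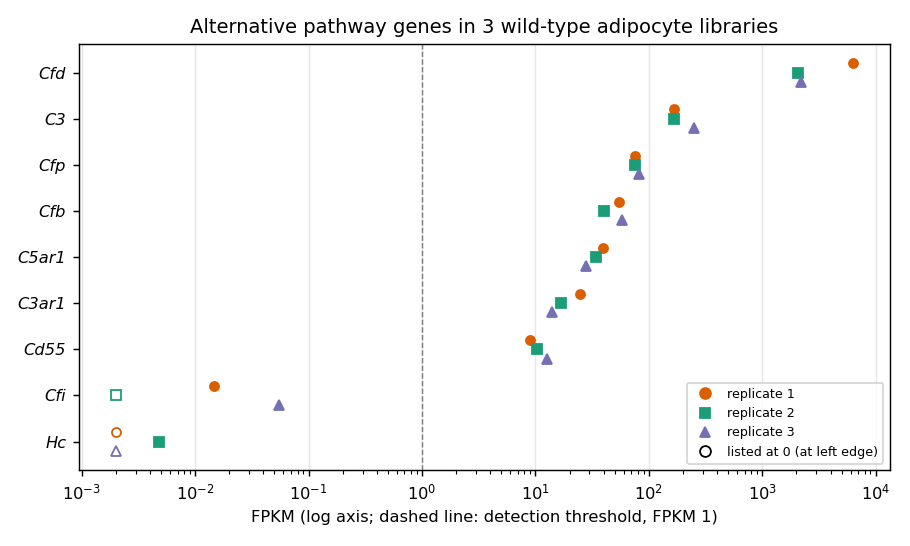
FPKM of the 9 alternative pathway genes (log axis), with 1 point per library and genes ordered by mean level. Cfd lies between 2058 and 6288, 6 genes lie between 8.90 and 250.2, and Cfi and Hc lie below the dashed line at FPKM 1, with open symbols at the left edge for libraries listed at 0.

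Cfd, on chromosome 10 from 79890853 to 79892660, had 6288, 2058 and 2194 FPKM in replicates 1, 2 and 3. Replicate 1 was the high library, and the other 2 differed by only 1.07-fold. The mean was 3513 ± 2404 FPKM (SD, n = 3), and 2126 without replicate 1. Cfd alone held 1.25%, 0.421% and 0.419% of the summed FPKM of the table in the 3 libraries. Within the 9 genes it held 94.4%, 85.7% and 83.2% of their sum. In bulk RNA, a larger number of cells of a type and more RNA per cell cannot be told apart.

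Cfd was the only one of the 7 detected members whose highest library was 2-fold or more above its lowest, at 3.06-fold, against 17.9% of the 11993 genes that averaged at least FPKM 1. Of those genes 7.34% had a larger range than Cfd. The 2-fold range rested on replicate 1, without which no member reached 2-fold. Of the 7 members, 3 had their highest value in replicate 1 (Cfd, C3ar1 and C5ar1), against 46.7% of those genes. As deposited, the library median of those genes lay 0.13 log2 units below the mean of the 3 medians in replicate 2. It lay 0.08 and 0.05 above that mean in replicates 1 and 3. After each library was divided by its median, the range of Cfd was 2.79-fold.

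Markers of several cell types also differed between the libraries, and replicate 1 stood apart. All 13 adipocyte markers were detected in every library, led by Retn and Adipoq, with summed levels of 7336, 2320 and 2451 FPKM, and 12 of 13 were highest in replicate 1. Macrophage markers (10 of 10 detected, led by Lyz2 and Cd68) summed to 1863, 1301 and 1488 FPKM. Endothelial markers (8 of 8, led by Cldn5 and Esam) summed to 1102, 2318 and 2169. Mesothelial markers (7 of 7 measured, led by Upk3b and Msln) summed to 40.6, 72.5 and 151, and fibroblast and progenitor markers (8 of 8, led by Dcn and Col3a1) to 651, 749.9 and 921. Dendritic cell markers (4 of 6 detected, led by Itgax and Zbtb46) summed to 38.8, 33.3 and 47.9. Neutrophil markers (3 of 9, led by S100a8 and S100a9) summed to 13.0, 5.57 and 8.54, and lymphocyte markers (1 of 8, Cd79a) to 6.83, 3.67 and 10.3. None of the 8 hepatocyte markers was detected in every library, Ttr and Fgg were listed at 0 in all 3, and the list summed to 5.22, 1.29 and 1.04. Markers of spermatids and sperm, led by Prm2 and Prm1, summed to 1269, 23.2 and 9.74 FPKM. The part of these other cells in the values of the complement genes was not tested, beyond the values given beside each gene.

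**Figure D2:**
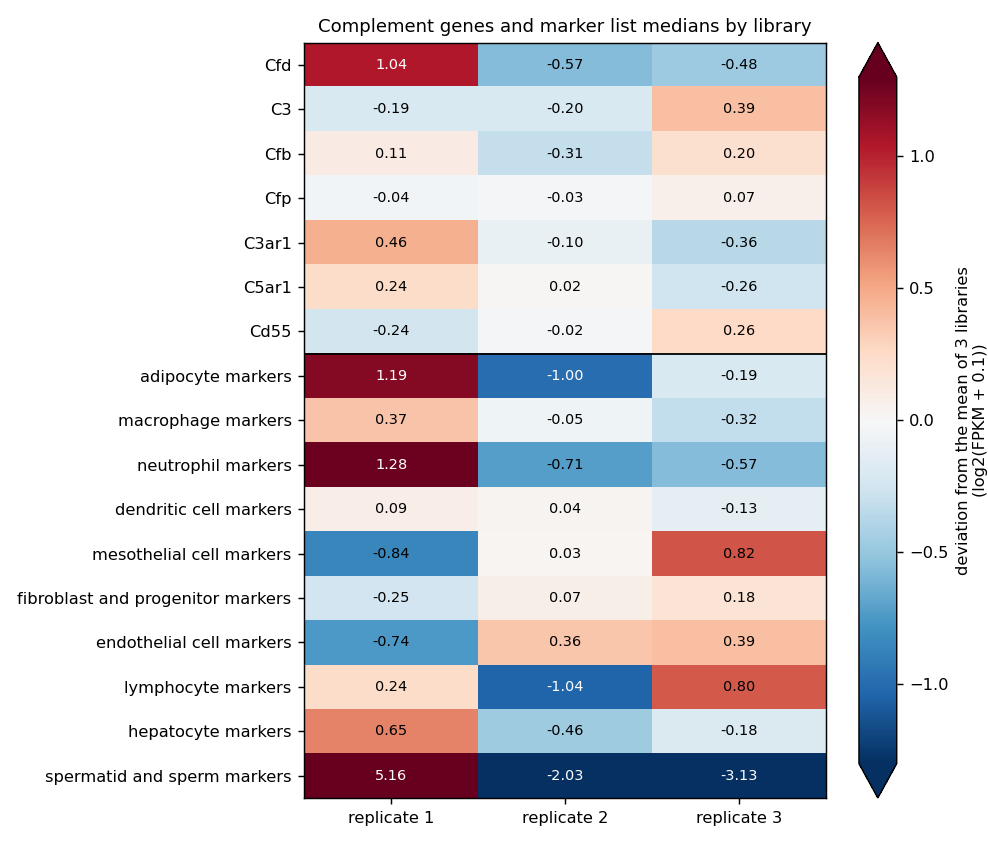
Deviation of each detected complement gene (upper rows) and of the median of each marker list (lower rows) from its own mean over 3 libraries, on the log2(FPKM + 0.1) scale, with red above the mean, blue below it and colours saturating at the ends of the bar. Cfd and the adipocyte and neutrophil markers are above their means in replicate 1, by 1.04, 1.19 and 1.28, and C3 is above its mean in replicate 3 only, by 0.39.

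Relative to Adipoq, to Retn and to the median of the adipocyte markers, Cfd varied less than on its own. Adipoq, which encodes the adipokine adiponectin, had 1476, 432 and 474 FPKM in replicates 1, 2 and 3. Cfd exceeded it by 2.09, 2.25 and 2.21 log2 units, a mean of 2.18 ± 0.0838 (SD, n = 3). Cfd was thus about 4.55-fold above Adipoq in libraries where each gene on its own differed by 3-fold or more. Retn, which encodes resistin, had 1732, 406 and 400.4 FPKM, and Cfd exceeded it by 2.22 ± 0.315 log2 units, by least in replicate 1. Above the median of the 13 adipocyte markers Cfd stood by 3.98, 4.55 and 3.84 log2 units, with an SD of 0.376, against an SD of 0.905 for Cfd alone. The 13 markers differed between their highest and lowest library by a median of 3.76-fold, and 9 of them by more than Cfd. Of the marker lists, only the adipocyte list was set against Cfd. The median of the neutrophil markers, most of them not detected in every library, had a similar pattern. It deviated from its mean by 1.28, -0.71 and -0.57 log2 units, and Cfd by 1.04, -0.57 and -0.48. A smaller spread is thus not particular to adipocyte markers.

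The genes closest to Cfd in pattern were found by the root mean square difference of log2(FPKM + 0.1) after centring each gene on its mean over the 3 libraries, among 8151 other genes that averaged at least FPKM 5. They were Sord (sorbitol dehydrogenase), Scn7a (a sodium channel), Gys1 (glycogen synthase), Ivd (isovaleryl-CoA dehydrogenase) and Clybl (a mitochondrial lyase), at distances of 0.0117 to 0.0251 log2 units. Sord, the closest, had 55.6, 18.4 and 19.7 FPKM in the 3 libraries. Only 55 genes, 0.675% of those compared, lay within 0.1 of Cfd. Of the adipocyte markers, the transcription factor gene Cebpa was the 15th closest gene at 0.0465, Adipoq the 31st at 0.0684 and the lipase gene Lipe the 42nd at 0.0822. Pparg, the nuclear receptor of fat cell differentiation, was the 4537th, with 174, 194 and 164 FPKM. With 3 libraries many genes share a pattern, so closeness is a description only.

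C3, the central component and the substrate of the convertase, was the second most abundant member. It lies on chromosome 17 from 57203967 to 57228136, at 167.0, 166.7 and 250.2 FPKM in replicates 1, 2 and 3, a mean of 195 ± 48.1 (SD, n = 3). Replicate 3 was the high library and the other 2 were nearly equal, whereas Cfd was highest in replicate 1. After division by library medians C3 stood at 158, 182 and 243 FPKM, with replicate 3 still the highest. Cfd exceeded C3 by 37.6-fold, 12.3-fold and 8.77-fold in the 3 libraries, highest in replicate 1. The C3 level lay above the median of the fibroblast and progenitor markers by 3.82 ± 0.245 log2 units. That SD was below the 0.337 of C3 alone, and the SD was 0.573 against the mesothelial markers and 1.20 against the adipocyte markers.

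The 5 genes closest to C3 in pattern were Rrad (a Ras-related GTPase), Renbp (renin-binding protein), Vtn, Nsf (a membrane fusion ATPase) and Snrpf (a spliceosomal protein), at distances of 0.000690 to 0.0126 log2 units. Vtn encodes vitronectin, a plasma and matrix protein that blocks assembly of the membrane attack complex, and had 49.1, 49.3 and 74.5 FPKM. The pattern of C3 was a commoner one than that of Cfd, with 289 genes, or 3.55%, within 0.1.

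Cfb, which encodes the factor B zymogen that Cfd cuts, had 54.6, 40.7 and 58.3 FPKM on chromosome 17 from 34856374 to 34862514, a mean of 51.2 ± 9.28 (SD, n = 3). Replicate 2 was the low library. Cfd exceeded Cfb by 5.91 ± 0.836 log2 units and C3 exceeded it by 1.91 ± 0.265. The row of C2, the paralog of Cfb in the classical pathway, begins after a gap of 87 bases on the same chromosome and had 42.1, 30.9 and 51.2 FPKM. Cfb exceeded C2 by only 0.32 ± 0.115 log2 units, and both were lowest in replicate 2. The row of Nelfe ends 1 base before Cfb, with 20.4 ± 2.07 FPKM. The labels do not say whether the libraries kept strand, so reads at the edges of these adjoining genes could have been counted for either. C4b, the paralog of C3, had 92.0 ± 17.4 FPKM, and C3 exceeded it by 1.07 ± 0.452 log2 units.

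Cfp, the properdin gene and the only known positive regulator of the pathway, was the steadiest member. It lies on chromosome X from 20925535 to 20931524 and had 75.8, 76.3 and 81.5 FPKM, a mean of 77.8 ± 3.15 (SD, n = 3). Its highest and lowest libraries differed by 1.08-fold, and 96.0% of the 11993 genes had a larger range. As deposited it was highest in replicate 3, and after division by library medians in replicate 2. Cfp exceeded Cfb by 0.62 ± 0.247 log2 units and the macrophage receptor gene Adgre1 by 1.33 ± 0.138. Properdin is known as a product of myeloid cells. The difference of Cfp from the median of the macrophage markers had an SD of 0.395, against 0.0577 for Cfp alone, and the part of these cells in its level was not tested.

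Both anaphylatoxin receptors were detected, and the C5a receptor was the higher one in every library, while the gene of its ligand precursor was at or near 0. C3ar1, on chromosome 6 from 122847140 to 122856157, had 24.8, 16.8 and 14.0 FPKM in replicates 1, 2 and 3. C5ar1, on chromosome 7 from 16246743 to 16259540, had 39.7, 33.9 and 28.0. Both were highest in replicate 1 and lowest in replicate 3, and their means were 18.6 ± 5.62 and 33.9 ± 5.85 FPKM (SD, n = 3 each). C3ar1 was lower than C5ar1, with a log2 ratio of -0.67, -1.01 and -0.99 in the 3 libraries, a mean of -0.89 ± 0.189. The second C5a receptor, C5ar2, stood at 3.28, 1.28 and 1.45 FPKM.

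Set against the median of the macrophage markers, both receptor genes varied less between libraries than on their own. C3ar1 lay below the median of the 10 macrophage markers, with differences of -1.14, -1.28 and -1.28 log2 units and an SD of 0.0801, against an SD of 0.420 for C3ar1 alone. C5ar1 lay below it with differences of -0.47, -0.27 and -0.29, an SD of 0.109 against 0.252 alone. Set against Adgre1 by itself, C3ar1 varied more than against that median, with a log2 ratio of -0.78 ± 0.333. The single markers did not all share the pattern of the receptors. Of the 10, 7 were highest in replicate 1, as both receptors were. Cd68, at 172, 126 and 212 FPKM, was highest in replicate 3, where both receptors were lowest, and so were Fcgr1 and Itgam. C5ar1 is also a receptor of neutrophils, of whose 9 measured markers S100a8, S100a9 and Csf3r were detected in every library, and Camp, Ngp and Cxcr2 were listed at 0 in replicate 2. Above the neutrophil marker median C5ar1 stood by 6.26 ± 0.920 log2 units. The dendritic cell marker median was not set against the receptors, and it also fell from replicate 1 to replicate 3. Its deviations from its mean were 0.09, 0.04 and -0.13 log2 units, so a smaller spread need not be particular to macrophage markers. The 5 genes closest to C3ar1 in pattern were Slc25a26 (a mitochondrial carrier), Tmem126a, Tfb2m (a mitochondrial transcription factor), 4931406C07Rik and Fbxl5 (an iron-sensing F-box protein), at distances of 0.00506 to 0.0166, and 181 genes, or 2.22%, lay within 0.1.

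Among the inhibitors, the membrane regulator Cd55 was detected and the plasma protease Cfi was not. Cd55, which speeds the decay of the convertase on the cell surface, had 8.90, 10.3 and 12.6 FPKM on chromosome 1 from 130439030 to 130462740, a mean of 10.6 ± 1.88 (SD, n = 3). Replicate 3 was the high library and replicate 1 the low one. Cd55 was lower than 2 other surface regulators, Cd59a, which blocks the membrane attack complex, and Cr1l, the rodent regulator Crry. The log2 ratios were -1.93 ± 0.193 over Cd59a, at 40.4 ± 5.28 FPKM, and -2.80 ± 0.173 over Cr1l, at 74.5 ± 12.7 FPKM.

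Cfi, which encodes the protease that cuts C3b, lies on chromosome 3 from 129836739 to 129875328. It had 0.0145 FPKM in replicate 1, was listed at 0 in replicate 2 and had 0.0550 in replicate 3. Hc, the C5 gene, on chromosome 2 from 34983331 to 35061441, had 0.00481 FPKM in replicate 2 and was listed at 0 in the others. Values that low cannot be told from 0 without read counts, and a listed 0 can be a failed estimate.

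In order of mean level the 9 genes ran Cfd, C3, Cfp, Cfb, C5ar1, C3ar1, Cd55, Cfi and Hc. Between neighbours in that order the ranges over the 3 libraries did not overlap, with the exception of Cfi and Hc. The closest neighbours within a library were C3ar1 over Cd55, at 1.11-fold in replicate 3 and 2.79-fold in replicate 1, and Cfb over C5ar1, at 1.20-fold in replicate 2. For C3ar1 over Cd55 the log2 difference of 0.77 ± 0.664 was only slightly larger than its SD. Among the members themselves C3 and Cd55 had the closest patterns, at a distance of 0.127, followed by C3ar1 and C5ar1 at 0.154. Cfd and Cd55 were the farthest apart at 0.909. Many other genes were closer than the C3 and Cd55 pair, with 14.2% of the 8151 genes compared within 0.1 of Cd55 and 3.55% within 0.1 of C3.

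The other genes of the pathway included abundant regulators and leukocyte receptors, whereas C8a, C8b and C9 of the terminal pathway were at or near 0. Of 25 genes listed for the pathway all were measured, 1 of them under another symbol (Daf2 as Cd55b), and 14 were detected in every library, against the 45.5% of all symbols given above. Their median was 1.48 on the log2(FPKM + 0.1) scale. Of 10 regulators 5 were detected. Thbd, the endothelial thrombomodulin that also promotes C3b inactivation, stood at 95.6 ± 17.1 FPKM and Clu, which encodes the complement inhibitor clusterin, at 83.1 ± 41.0. Clu stood at 47.4, 74.0 and 128 FPKM across replicates 1, 2 and 3 and was the only 1 of 5 regulators averaging at least FPKM 1 that ranged 2-fold. Cpn2, a subunit of the carboxypeptidase that trims anaphylatoxins, was listed at 0 in all 3 libraries. Cpn1, its catalytic subunit, was listed at 0 in replicate 2 and reached 0.130 FPKM in replicate 3.

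Of the 6 genes of the membrane attack complex list 2 were detected. C7 stood at 28.7, 60.7 and 56.9 FPKM in replicates 1, 2 and 3, lowest in the first, and C6 at 10.4, 4.82 and 5.73, highest in the first. Endothelial, mesothelial and fibroblast marker sums were also lowest in replicate 1, and the part of those cells in C7 was not tested. C8g stood at 1.37, 0.258 and 0.930 FPKM. C8a, C8b and C9, each of which the complete complex needs, were listed at 0 in replicates 2 and 3 and had 0.00813, 0.0267 and 0.0174 FPKM in replicate 1. Of the 6 receptor genes 5 were detected. Itgb2, the common chain of complement receptors 3 and 4, had 60.6, 27.9 and 62.2 FPKM, and its partners Itgam and Itgax stood at 16.4 ± 5.11 and 15.5 ± 6.33. All 3 integrin chains were lowest in replicate 2. Cr2, the receptor of B cells, stood at 0.0421 ± 0.0362 FPKM. Masp1, whose MASP-3 form activates pro-factor D, stood at 0.553, 0.988 and 1.55 FPKM, with replicate 1, the library highest in Cfd, the lowest. Genes with a 2-fold range made up 7 of the 15 that averaged at least FPKM 1, against 17.9% of all such genes, and 2 without replicate 1, 4 without replicate 2 or 5 without replicate 3.

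**Figure D3:**
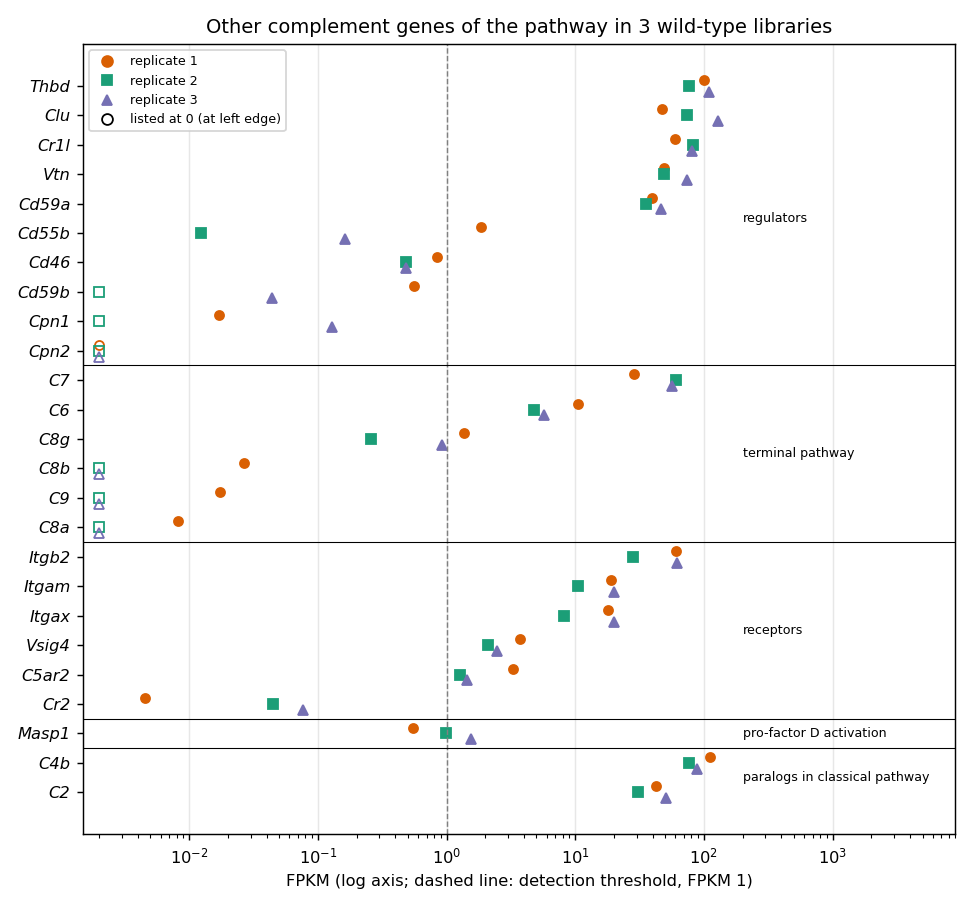
FPKM of 25 other complement genes (log axis), grouped by role, with 1 point per library and open symbols at the left edge for libraries listed at 0. Thbd, Clu, Cr1l, Vtn and Cd59a lie between 35.6 and 128 FPKM, whereas C8a, C8b and C9 lie near 0, and Cd55b and Cd59b are far higher in replicate 1 than in the other 2 libraries.

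Some regulator genes of mice, among them copies of Cd55 and Cd59a, are known mainly from testis or sperm. These were picked out after their values were seen. Cd55b, the neighbouring copy of Cd55, had 1.84, 0.0123 and 0.161 FPKM in replicates 1, 2 and 3. Cd59b, the copy of Cd59a, had 0.562 FPKM in replicate 1, was listed at 0 in replicate 2 and had 0.0442 in replicate 3. Cd46, which in mice is a protein of the sperm acrosome, had 0.842, 0.482 and 0.487. All 3 were highest in replicate 1, but none of them averaged FPKM 1. Of all genes that averaged at least FPKM 1, 46.7% were highest there too. The 7 markers of spermatids and sperm also had their highest values in replicate 1, with medians of 7.65, 0.46 and -0.65 on the log2(FPKM + 0.1) scale. Cd46 differed by only 1.75-fold between its highest and lowest library, and each of those markers by at least 89-fold. Cd55 and Cd59a, the somatic counterparts of Cd55b and Cd59b, were highest in replicate 3. Reads shared between near-identical copies could have been split by the authors' counting, so the single values of these pairs are uncertain. The part of testis RNA in these values was not tested.

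All 14 gene pairs compared within libraries had the same sign in 3 of 3 libraries. Each gave p = 0.25 in the exact two-sided sign-flip permutation test (n = 3) and 0.25 after Benjamini-Hochberg adjustment over the 14 pairs. With 3 libraries 0.25 is the smallest p this test can give, so no pair could pass 0.05. For C3 over Hc only the order is given, because the size of that ratio was set by the pseudocount.

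**Figure D4:**
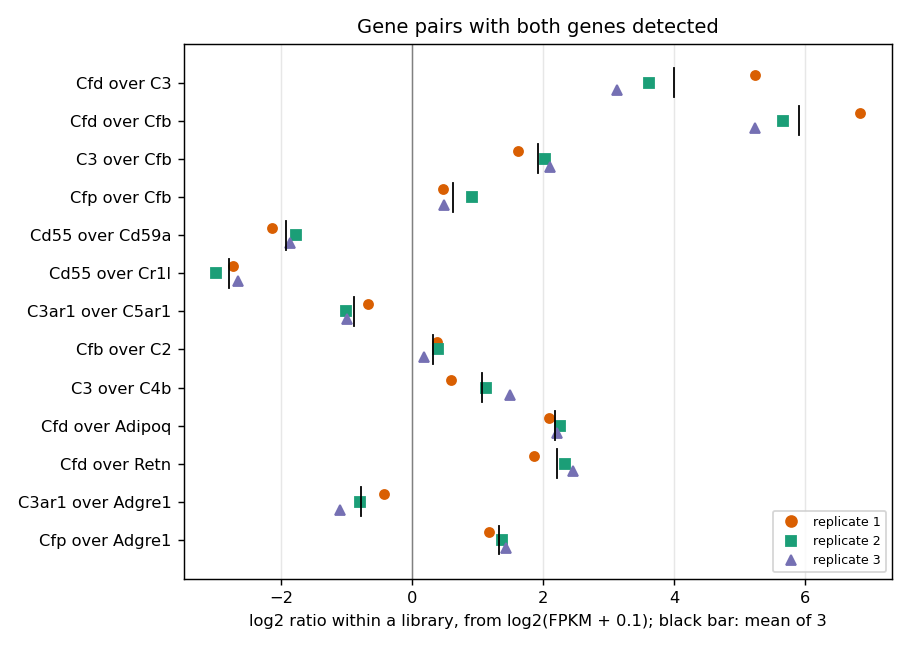
Within-library log2 ratios of 13 gene pairs, from log2(FPKM + 0.1), with 1 point per library and a black bar at the mean. The ratios of Cfd to C3 and to Cfb are spread by replicate 1, at 5.23 and 6.85 there, whereas the 3 ratios of Cfd to Adipoq lie between 2.09 and 2.25.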

How the data were processed

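RNA-seq of 3 wild-type adipocyte libraries was analysed. The authors deposited FPKM values, not log-transformed, in 1 table with 1 column per library, and each column was matched to its library by the name in the sample description. Per the submitters' processing notes, the tools were featureCounts, Bismark 0.22.1 and Trim Galore 0.5.0 and the builds mm10 and GRCm38, with no statement of which applied to RNA. How the FPKM values were calculated is not stated in the labels or the table. The table held 24889 rows and 24330 symbols. A symbol with several rows (273 in all) was represented by its highest row on average, and 27 rows with a calendar date for a symbol were left out. Table starts, which count from 0, were raised by 1, after which 5 of the 9 members had the RefSeq GRCm38.p6 start.

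Values were put on the log2(FPKM + 0.1) scale, which understates ratios of genes near 0, and no count test was used. Each gene pair was compared by its log2 ratio in every library, with an exact sign-flip permutation test. Of the 10 marker lists, Ly6g and Muc16 had no row used here. The genes named were all members, the genes of the pairs, the 3 highest genes and those at 0 of the pathway lists, the 5 genes closest in pattern to Cfd, C3 and C3ar1, and the 2 highest markers of each list, some left out for length. Others were named after their values were seen. The members, lists and pairs were chosen with earlier results of these data known. Some genes of the pathway lists and pairs are not reported here. The call of a 2-fold range and the ranking of genes by pattern were tested on simulated data with planted patterns. The noise there was smaller than the spread between these libraries, and most other steps were not tested in that way. Alternatives covered the pseudocount, the detection threshold, filters, rescaling to TPM or to library medians, summed rows and leaving out each library. Python 3.11.15, numpy 2.4.6, pandas 2.3.3 and matplotlib 3.10.9 were used. Promoters came from RefSeq, build GRCm38.p6.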

Additional observations from a re-analysis of the deposited data

How the results depend on the processing

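The 14 pair ratios kept their sign in each of the 98 recomputations. These used a pseudocount of 1 or 0.01, TPM, summed rows and each library left out in turn. None of these settings could change a sign, so the result was fixed in advance. Every pair already had the same sign in 3 of 3 libraries, each gene had 1 row, and the pseudocount and rescaling act alike on both genes of a library. The 7 detected members stayed at 7 under thresholds of 0.5 and 5, TPM, summed rows and without any 1 library. The 14 detected pathway genes ranged over the same settings from 11 at FPKM 5 to 15 at FPKM 0.5. A threshold of 0.5 or leaving out a library could not lower these counts, and summed rows could not change them because each gene had 1 row. Replicate 1 set the range of Cfd. Leaving out 1 library gave a ratio of its highest to lowest library of 1.07 to 3.06, from 0 to 1 members with a 2-fold range and from 2 to 5 such pathway genes, and fewer samples narrow any range. Of the 5 genes closest in pattern to Cfd, 2 were shared with the 5 found at a pseudocount of 1, and of those closest to C3, 3 were shared at a pseudocount of 1 and 3 among all genes that averaged at least FPKM 1. The cause was not tested. No comparison of RNA levels between conditions was possible because the 3 RNA-seq libraries form a single group, and only genes were paired, within each library. Depth is unknown, which limits what can be said of Cfi, Hc and the other genes under FPKM 1.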

Other observations

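Around Cfd, 11 other rows of the table lay within 50 kb on chromosome 10, a window chosen after the level of Cfd was known. The adjacent genes Prtn3 and Elane encode serine proteases of neutrophil granules. Prtn3, whose row ends 7680 bases before Cfd, had 4.57, 3.78 and 5.02 FPKM in replicates 1, 2 and 3. Elane, 2636 bases before Cfd, had 0.964, 0.168 and 0.145. On the other side Med16, which encodes a Mediator subunit, begins after 2046 bases and had 9.24, 9.74 and 13.2 FPKM. The highest of the 11 rows was Ptbp1, an RNA-binding splicing regulator, at 77.9 ± 10.9 FPKM (SD, n = 3). Elane, like Cfd, was highest in replicate 1, and Prtn3 was highest in replicate 3. The row of Bc1, a noncoding RNA gene, spans the Cfd locus in the table and was listed at 0 in all 3 libraries.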
